A study of Pelodiscus sinensis with 18 samples.

Results

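In the Chinese soft-shelled turtle (Pelodiscus sinensis), 7 genes that make, degrade or sense prostaglandins, or start the neighbouring leukotriene pathway, were followed in the liver and the gut. They were HPGDS, PTGS1, PTGS2, PTGES, HPGD, PTGER4 and ALOX5. They were picked by name out of the 24880 features of the deposited table, and all 7 were present in it. The choice was made with results of these data known. Which values were used is not stated; they are taken to be those of liver at the higher dose against control livers, where HPGDS was low. Values of the 7 genes in that comparison, and in the other comparisons that contain the livers at the higher dose, are therefore a description without p-values, from which nothing is concluded. The same control livers are used at the lower dose and in the comparison of control tissues. Tests of the 7 genes there are thus not independent of the choice. Gut values may have been used as well, so the gut tests of the 7 genes are not taken as independent of it either.

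The turtles, labelled wild type, were either unexposed or exposed to niclosamide, an anthelmintic and snail poison, at 10 or at 50 µg per L. Each of the 6 groups, formed by the 3 exposures in liver and in gut, held 3 libraries. RNA levels are given as FPKM, a measure scaled by both transcript length and library size, so that levels can be compared between genes. Whether replicate libraries represent separate animals is not stated in the labels. The p-values therefore reflect only library-to-library spread, which may be technical. These are whole tissues, in which fewer cells of a type and less RNA per cell cannot be told apart.

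As background, known mainly from mammals, prostaglandins are made from arachidonic acid in 2 steps. The cyclooxygenases PTGS1, which is made steadily in many tissues, and PTGS2, which is induced by injury and inflammation, give prostaglandin H. Terminal synthases then turn it into single prostaglandins, with PTGES giving prostaglandin E and HPGDS, the haematopoietic synthase found in mast cells, macrophages and some T cells, giving prostaglandin D. HPGD, the 15-hydroxyprostaglandin dehydrogenase, starts their breakdown, and PTGER4 is a receptor for prostaglandin E. ALOX5 uses the same arachidonic acid to begin the synthesis of leukotrienes, lipid signals that attract white blood cells. In the gut, prostaglandin E is known for its part in maintaining the epithelium.

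FPKM sums were 588542 to 753840 per library, and the depth behind each value is unknown. The liver clotting factor gene FGB averaged 19396 FPKM in control livers and 4.14 in control guts, and the intestinal regulator CDX2 averaged 0.00312 and 51.2 FPKM, so both tissues carried the marker of their label. Some libraries stood apart from the rest of their group. A set of 26 features was present in 5 libraries (control livers 2 and 3, control guts 1 and 2, and gut 3 at 50 µg per L), at a summed level of 262 to 419 FPKM, against 0.235 to 4.81 in the other 13 libraries. The 3 livers at 50 µg per L were more alike across genes (Pearson correlations of log2 values from 0.994 to 0.996) than other groups (0.965 to 0.985), apart from liver controls 2 and 3 (0.995). No pair within a group had more than 2 identical values above 0.

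In the liver at 50 µg per L, the comparison taken to have chosen the genes, HPGDS was low while PTGS2 and HPGD were high. HPGDS averaged 28.6-fold less than in control livers, PTGS2 4.26-fold more and HPGD 2.72-fold more. In the gut at the same dose PTGS2, PTGES, PTGER4 and HPGDS were all lower than in every control gut, by 1.55- to 3.37-fold, in a comparison in which 11.8% of all genes had groups that did not overlap. None of these gut differences passed the test across all genes. PTGS2 thus lay above the controls in liver and below them in gut.

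**Figure D1:**
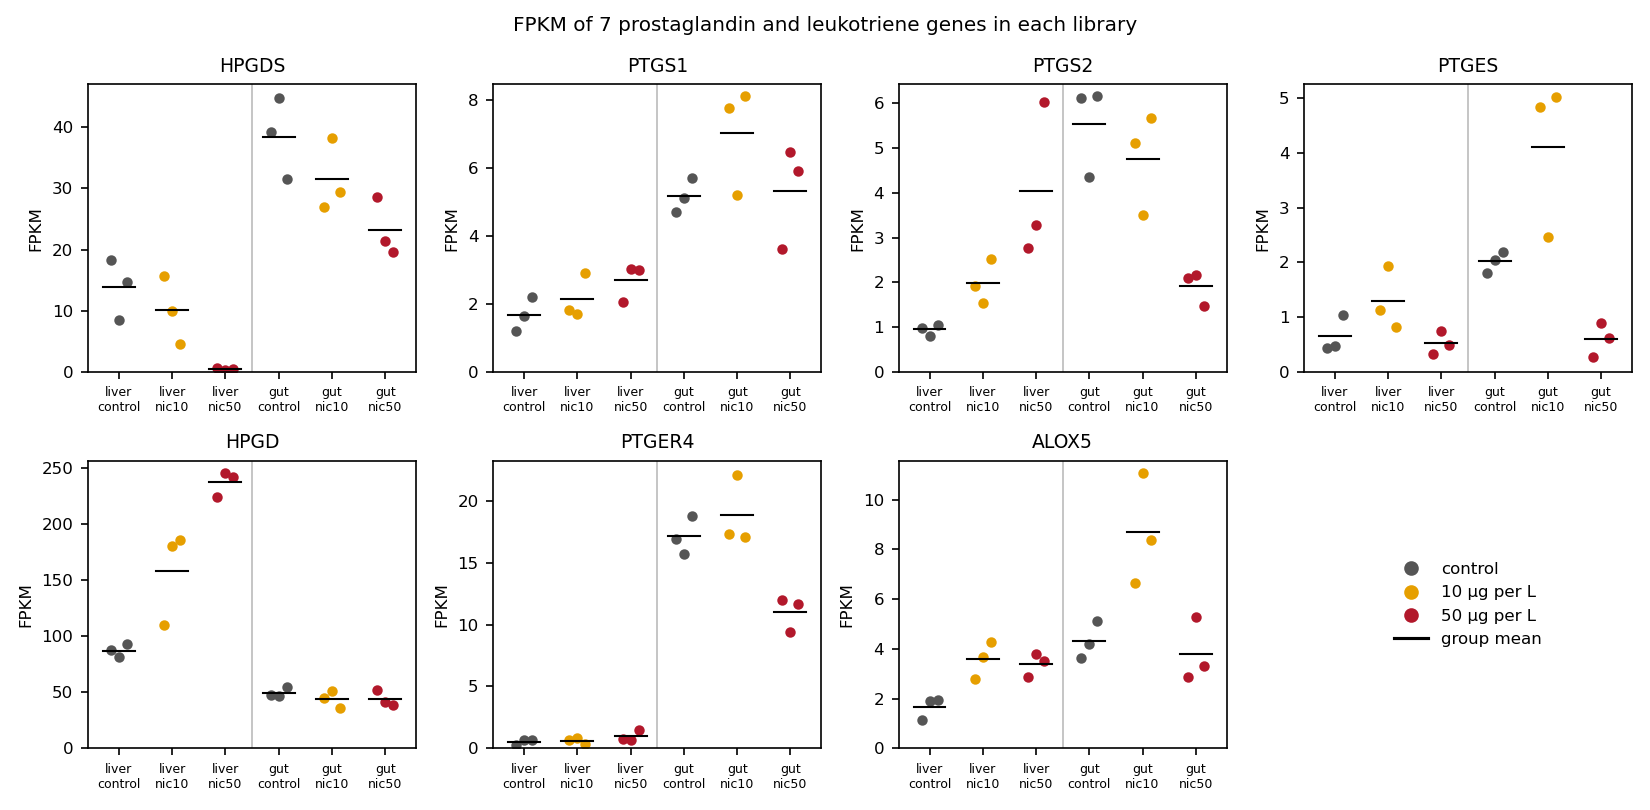
FPKM of each of the 7 genes in the 18 libraries (points, linear axes from 0 that differ between genes), by tissue and niclosamide concentration (10 µg per L is nic10 and 50 µg per L is nic50), with the mean of 3 libraries as a line. HPGDS lay between 0.368 and 0.659 in livers at 50 µg per L against 8.44 to 18.3 in control livers, while HPGD and PTGS2 lay above their liver controls.

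HPGDS, the prostaglandin D synthase, was at 18.3, 8.44 and 14.6 FPKM in the 3 control livers. It was at 15.8, 9.88 and 4.52 FPKM in livers at 10 µg per L and at 0.659, 0.368 and 0.420 FPKM in livers at 50 µg per L. The first pair of groups overlapped, whereas every liver at the higher dose lay far below every other liver. The group means were 13.8 ± 4.99 (SD, n = 3), 10.1 ± 5.62 and 0.482 ± 0.155 FPKM. On the log2(FPKM + 1) scale used for all fits, which understates the change of low genes, the difference at 50 µg per L from control was -3.26 (SE 0.38, 95% interval -4.10 to -2.43). HPGDS was among the genes past an adjusted p of 0.05 in that fit with limma, as were 4.71% of the 10892 genes tested in that comparison. These values are taken to have chosen the gene, so the call only describes it. Groups did not overlap for 35.6% of all genes in that comparison, for 28.7% between the liver doses and for 13.8% between 10 µg per L and control. At 10 µg per L the HPGDS difference was -0.50 (SE 0.38), which did not pass limma's test (adjusted p = 0.633).

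In gut, HPGDS was at 39.2, 44.8 and 31.5 FPKM in controls and at 26.9, 38.3 and 29.4 FPKM at 10 µg per L. It was at 28.6, 21.3 and 19.6 FPKM at 50 µg per L, where all 3 libraries lay below all 3 controls. In that comparison 11.8% of all genes had groups that did not overlap. The mean fell from 38.5 ± 6.67 to 23.1 ± 4.76 FPKM (SD, n = 3), a control level 1.66-fold that of the exposed group. The log2 difference of -0.71 (SE 0.21) did not pass limma's test over 12617 genes (adjusted p = 0.572), in a comparison in which 0.0238% of genes passed. The difference between tissues, taken as the liver change minus the gut change, was -2.55 (SE 0.46) at 50 µg per L. HPGDS was more abundant in gut than in liver, with the 3 gut groups at the top of its 6 group means and the livers at 50 µg per L alone at the bottom.

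Markers of cell types known to hold HPGDS were compared in the livers, and their part in the liver HPGDS difference was not tested. The other 4 mast cell markers found in the table (KIT, HDC, GATA2 and SLC18A2) summed to 0.344 to 1.17 FPKM in control livers and 0.225 to 0.843 FPKM in livers at 50 µg per L. Those ranges overlapped and lay far below the HPGDS level of control livers. The mast cell markers CPA3, TPSAB1, MS4A2 and FCER1A were not found by name, and levels of different genes do not show which cells hold HPGDS. Of 5 other tuft cell markers, DCLK1 and CHAT were listed at 0 in every liver, and the sum reached at most 1.43 FPKM. The 8 macrophage markers summed to 124 to 145 FPKM in control livers and 128 to 141 FPKM in livers at 50 µg per L, again overlapping. CD68 made up most of the sum, and the highest single value was 120 FPKM in controls and 95.3 FPKM at 50 µg per L. Of the 7 tested, 0 passed limma's test against control at 50 µg per L. Between the liver doses 1 was lower at 50 µg per L, beside 0.744% of all genes. Of the smaller macrophage markers, SPI1 (5.88 to 8.27 against 10.5 to 14.8 FPKM) and MPEG1 (1.87 to 2.18 against 2.74 to 3.70 FPKM) were higher at 50 µg per L without overlap, and neither passed limma's test. In that comparison 35.6% of all genes had groups that did not overlap. Lymphocyte markers, which include those of T cells, were also higher without overlap, at 5.89 to 16.0 FPKM against 16.5 to 33.7 FPKM. In gut the macrophage sum did not overlap, at 218 to 273 FPKM in controls and 145 to 193 FPKM at 50 µg per L, and its part in the lower gut HPGDS was not tested.

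The 26-feature set also divided the control livers. Control liver 1 was the only one without it, and its HPGDS level of 18.3 FPKM was the highest of the 3. With the presence of the set as a term in the fit, a choice made after seeing the data, the HPGDS difference in liver at 50 µg per L was -3.71. No exposed liver carried the set, so this term left control liver 1 as the only control in that comparison.

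PTGS1, the steady cyclooxygenase, moved little. It was at 1.19, 1.63 and 2.20 FPKM in control livers, 1.82, 1.70 and 2.90 FPKM at 10 µg per L, and 2.06, 3.03 and 2.99 FPKM at 50 µg per L. The liver groups overlapped at each step, and the log2 difference at the higher dose was 0.47 (SE 0.22). In gut PTGS1 was at 4.70, 5.12 and 5.69 FPKM in controls, 7.76, 5.21 and 8.10 FPKM at 10 µg per L and 3.61, 6.47 and 5.90 FPKM at 50 µg per L. The differences from gut controls were 0.36 (adjusted p = 0.472) and 0.01 (adjusted p = 0.998) by limma. All 3 gut groups lay above all 3 liver groups for this gene.

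PTGS2, the inducible cyclooxygenase, was at 0.977, 0.806 and 1.06 FPKM in control livers. It was at 1.91, 1.54 and 2.53 FPKM at 10 µg per L and at 2.77, 3.29 and 6.03 FPKM at 50 µg per L. The 3 liver groups did not overlap, and the highest value came from liver 3 at the higher dose. Over all genes the shares without overlap were 13.8% (lower dose against control), 28.7% (between doses) and 35.6% (higher dose against control). The means were 0.946 ± 0.128, 1.99 ± 0.498 and 4.03 ± 1.75 FPKM (SD, n = 3). The log2 difference was 0.61 (SE 0.24, limma adjusted p = 0.298) at 10 µg per L and 1.32 (SE 0.24, 95% interval 0.78 to 1.86) at 50 µg per L, where PTGS2 was among the genes past the threshold. That call only describes PTGS2, as these values are taken to have chosen it. It was kept in only 2 of the 6 fits that left out 1 library, in which the difference was 1.05 to 1.50.

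In gut the direction was the other one. PTGS2 was at 6.12, 4.36 and 6.15 FPKM in control guts and at 5.12, 3.51 and 5.66 FPKM at 10 µg per L, groups that overlapped. At 50 µg per L it was at 2.11, 2.16 and 1.47 FPKM, below every control and every gut at the lower dose, with a control mean 2.90-fold that of the exposed group. Groups did not overlap for 11.8% of all genes against control and for 19.1% between doses. The log2 difference of -1.16 (SE 0.21) had an unadjusted p of 0.000339 in limma and an adjusted p of 0.234, and so did not pass. The liver change minus the gut change was 2.48 (SE 0.33, 95% interval 1.79 to 3.17) at 50 µg per L. This difference between tissues was among the 0.987% of 13475 genes past the threshold. As PTGS2 was chosen with its liver values known, the call only describes it.

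Several marker sums differed from controls in the direction of PTGS2 at 50 µg per L. Groups did not overlap for 35.6% of all genes in liver and 11.8% in gut in these comparisons. The sum of 8 enterocyte markers in liver went the other way, at 122 to 149 FPKM in controls and 46.4 to 70.2 FPKM at 50 µg per L. It includes LGALS4, at 71.9, 22.8 and 27.6 FPKM in control livers and 3.79, 7.93 and 5.21 FPKM at 50 µg per L. Of the 5 tested, LGALS4 was the only marker lower past the threshold, and it was also chosen below for its likeness to HPGDS. In liver the 8 fibroblast and stellate cell markers summed to 10.8 to 15.7 FPKM in controls, 20.2 to 31.9 FPKM at 10 µg per L and 35.0 to 54.9 FPKM at 50 µg per L, the same order as PTGS2. Of the 7 tested, 4 were higher past the adjusted threshold at the higher dose and 0 lower, beside 3.69% and 1.02% of all genes. HAND2 gave the highest single value in each liver group (7.94, 15.8 and 23.1 FPKM by rising dose). The 8 lymphocyte markers, higher at 50 µg per L as given above, were highest in liver 3, which also had the highest PTGS2. They summed to 10.4 to 12.1 FPKM at 10 µg per L, within the control range. The 3 erythrocyte markers summed to 10.2 to 15.3 FPKM in control livers and 22.5 to 25.5 FPKM at 50 µg per L. Single values of 14.6 and 25.1 FPKM made up nearly all of the highest sums, and only 1 of the 3 markers was tested. In gut the 7 endothelial markers summed to 25.6 to 28.2 FPKM in controls and 8.68 to 20.1 FPKM at 50 µg per L. The 6 thrombocyte markers summed to 16.4 to 20.03 and 5.38 to 10.999 FPKM, with single values of up to 16.9 and 7.34 FPKM. The macrophage sum was lower too, as given above. At 10 µg per L the gut endothelial sum lay above the controls (38.7 to 53.3 FPKM), unlike PTGS2, and the thrombocyte sum overlapped them (18.2 to 25.2 FPKM). The fibroblast and stellate sum in gut overlapped, at 37.5 to 51.4 FPKM in controls and 17.4 to 66.7 FPKM at 50 µg per L. The part of these markers in the PTGS2 differences was not tested.

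**Figure D2:**
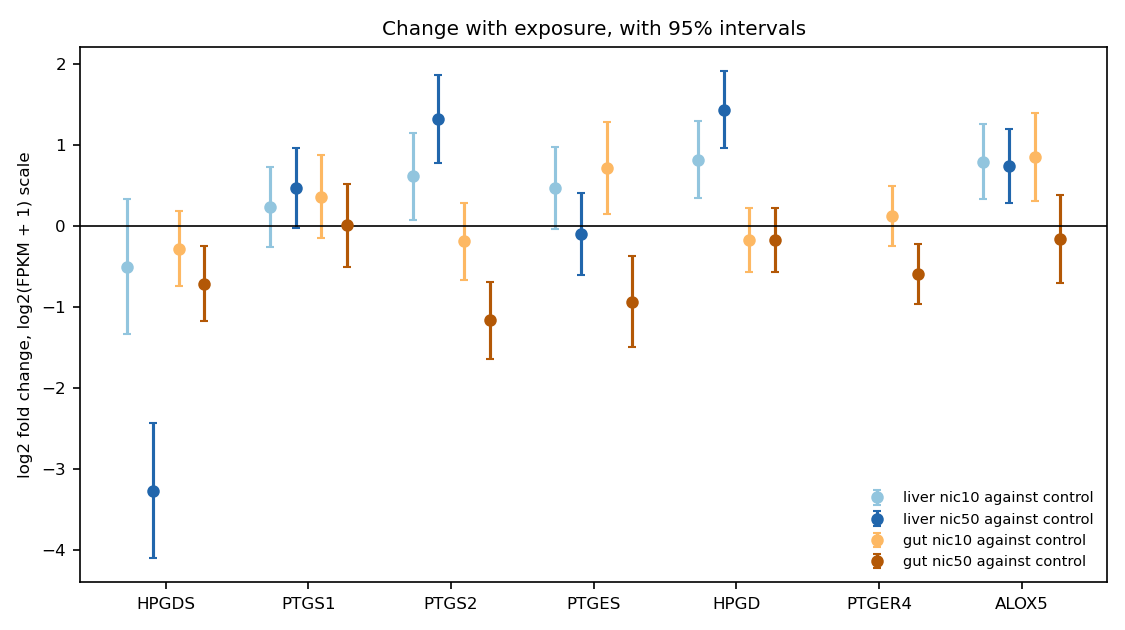
Change from control on the log2(FPKM + 1) scale for each gene at 10 (nic10) and 50 µg per L (nic50), in liver and gut, with 95% intervals from limma. HPGDS in liver at 50 µg per L lies at -3.26, and PTGS2 lies at 1.32 in liver and -1.16 in gut; PTGER4 was below the level filter in liver.

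PTGES, the inducible prostaglandin E synthase, was low in liver, at 0.438, 0.465 and 1.04 FPKM in controls. It was at 1.13, 1.94 and 0.817 FPKM at 10 µg per L and 0.324, 0.750 and 0.498 FPKM at 50 µg per L. The exposed livers overlapped the controls at both doses, with a log2 difference of 0.47 (SE 0.23, limma adjusted p = 0.412) at the lower dose and -0.10 (SE 0.23) at the higher.

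In gut PTGES was at 1.82, 2.05 and 2.19 FPKM in controls, at 4.85, 2.47 and 5.02 FPKM at 10 µg per L and at 0.278, 0.900 and 0.619 FPKM at 50 µg per L. No gut group overlapped another, with the lower dose above the controls and the higher dose below them. Against controls the log2 difference was 0.72 (SE 0.25, limma adjusted p = 0.26) at 10 µg per L and -0.93 (SE 0.25, adjusted p = 0.532) at 50 µg per L. Between the doses it was -1.65 (SE 0.25), the nearest of the 7 genes to the threshold there but not past it (limma adjusted p = 0.0575). In that comparison 19.1% of all genes had groups that did not overlap, and 0.119% passed. Between 10 µg per L and control in gut the shares were 22.0% and 0.174%.

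The guts at 10 µg per L differed among themselves in tissue markers. Guts 1 and 3, with PTGES at 4.85 and 5.02 FPKM, had sums of 8 enterocyte markers of 227 and 1187 FPKM and of 5 smooth muscle markers of 945 and 851 FPKM. Gut 2, with PTGES at 2.47 FPKM, had 3168 and 516 FPKM, near the control ranges of 2149 to 3080 and 319 to 657 FPKM. PTGS1 was also higher in guts 1 and 3. Endothelial markers summed to 38.7 to 53.3 FPKM in the guts at 10 µg per L, above the controls. The part of tissue composition in these values was not tested.

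A pair of other prostaglandin E synthases, PTGES2 and PTGES3, the latter also a co-chaperone, were more abundant than PTGES. PTGES3 averaged 98.5 ± 27.6, 106 ± 30.8 and 129 ± 1.47 FPKM in liver by rising dose (SD, n = 3), and 139 ± 17.0, 142 ± 14.7 and 128 ± 7.99 FPKM in gut. PTGES2 averaged between 7.14 and 9.18 FPKM in the liver groups and between 11.2 and 12.7 FPKM in the gut groups. Neither passed limma's test against control in either tissue.

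HPGD, the first enzyme of prostaglandin breakdown, was the most abundant of the 7 genes in liver. It was at 87.2, 81.5 and 92.6 FPKM in control livers, 110, 180 and 185 FPKM at 10 µg per L, and 224, 246 and 242 FPKM at 50 µg per L. The 3 groups stood in the order of dose without overlap. Such a lack of overlap held for 13.8% of all genes at the lower dose against control. It held for 28.7% between doses and 35.6% at the higher dose against control. The means were 87.1 ± 5.52, 158 ± 42.3 and 237 ± 11.3 FPKM (SD, n = 3). The log2 difference was 0.82 (SE 0.21) at the lower dose, which did not pass limma's test (adjusted p = 0.108), and 1.44 (SE 0.21, 95% interval 0.96 to 1.91) at the higher, where HPGD was among the genes past the threshold. That call only describes HPGD, as these values are taken to have chosen it. It was lost in the fit without liver 3 at 50 µg per L. The difference was 1.39 to 1.48 over the 6 fits that left out 1 library.

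In gut HPGD was at 47.1, 46.9 and 54.7 FPKM in controls, 45.3, 51.1 and 36.0 FPKM at 10 µg per L and 51.9, 41.4 and 38.5 FPKM at 50 µg per L. These groups overlapped throughout, with a log2 difference of -0.18 at each dose (limma adjusted p = 0.647 and 0.90). HPGD was the only one of the 7 with a higher level in control liver than in control gut. The liver change minus the gut change was 1.61 (SE 0.27) at 50 µg per L. It was past the threshold, though not after quantile normalization, where it was 1.39. With the alike livers averaged, which left 1 library at 50 µg per L in liver, it was 1.61. As HPGD was chosen with its liver values known, the call only describes it. At 10 µg per L the liver change minus the gut change was 0.99, which did not pass limma's test (adjusted p = 0.162).

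The genes that follow HPGD in prostaglandin breakdown, and the transporter that brings prostaglandins into the cell, were looked at beside it. PTGR2, a reductase of the keto product, averaged 7.43 ± 2.20 FPKM in control livers, 13.2 ± 5.97 at 10 µg per L and 16.5 ± 0.969 at 50 µg per L (SD, n = 3). Its log2 difference of 1.09 at the higher dose did not pass (limma adjusted p = 0.0824). PTGR1, the other reductase, averaged 149 ± 67.5 FPKM in control livers and 216 ± 28.9 at 50 µg per L, and did not pass. SLCO2A1, the uptake transporter, was low in liver; in gut it averaged 4.92 ± 0.0759 FPKM in controls and 12.9 ± 3.28 at 10 µg per L (log2 difference 1.20, limma adjusted p = 0.127).

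Neighbouring genes were checked by their order in the RefSeq annotation. SMARCAD1, next to HPGDS, and PDLIM5, 2 places away, had liver differences at 50 µg per L of 0.50 (adjusted p = 0.178) and 0.58 (adjusted p = 0.169) by limma, not past the test and opposite in sign to HPGDS. LOC102450363, next to HPGDS on the other side, was below the filter. CEP44, next to HPGD, and FBXO8, 2 places away, had differences of 0.19 and 0.03, and GLRA3 (LOC102459322), next to HPGD on the other side, was listed at 0 in every library. HAND2, 3 places from HPGD and a regulator known in stellate cells of the liver, rose by 1.47 (limma adjusted p = 0.0276).

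PTGER4, the prostaglandin E receptor, was far higher in gut than in liver. It was at 16.9, 15.7 and 18.8 FPKM in control guts, 17.3, 22.1 and 17.1 FPKM at 10 µg per L, and 12.0, 9.40 and 11.7 FPKM at 50 µg per L. The higher dose lay below both other groups, which overlapped each other. Groups did not overlap for 11.8% of all genes at the higher dose against control and for 19.1% between doses. The log2 difference from control was 0.12 (limma adjusted p = 0.729) at the lower dose and -0.59 (SE 0.16, adjusted p = 0.537) at the higher, and neither passed. In liver PTGER4 lay between 0.293 and 0.704 FPKM in controls, 0.317 and 0.800 at 10 µg per L, and 0.679 and 1.49 at 50 µg per L. It was left out of the liver fits because it did not reach 1 FPKM in 3 livers, so 6 of the 7 genes were tested there.

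Of 7 other prostanoid receptor genes found, 3 were tested in liver and 5 in gut, and the rest were below the filter there. Those tested gave no call against control in either tissue. PTGER1, another prostaglandin E receptor, averaged 1.58 ± 0.311 FPKM in control livers and 3.01 ± 1.35 at 50 µg per L (SD, n = 3). TBXA2R, the thromboxane receptor, averaged 10.7 ± 1.26 FPKM in control guts and 11.2 ± 3.14 at 50 µg per L. PTGDR, a receptor for prostaglandin D, averaged 1.50 ± 0.496 FPKM in control guts, 3.73 ± 2.10 at 10 µg per L and 1.51 ± 0.990 at 50 µg per L.

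ALOX5, which starts leukotriene synthesis, was at 1.13, 1.89 and 1.94 FPKM in control livers. It was at 2.80, 3.68 and 4.29 FPKM at 10 µg per L and 2.85, 3.81 and 3.51 FPKM at 50 µg per L. Both exposed groups lay above the controls and overlapped each other. Against control, 13.8% of all genes had groups without overlap at the lower dose and 35.6% at the higher. The log2 difference was 0.79 (SE 0.21, limma adjusted p = 0.108) at the lower dose and 0.74 (SE 0.21, 95% interval 0.28 to 1.19) at the higher, not past the threshold at either. At the higher dose its call depended on the processing. ALOX5 was past the threshold with library weights, the replicate block and only the groups compared (0.74, as in the fit of all 3 groups). As ALOX5 was chosen with liver values known, these calls only describe it. With the 26-feature term, which left control liver 1 as the only control, the difference was 1.04.

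In gut ALOX5 was at 3.61, 4.18 and 5.12 FPKM in controls, 6.65, 11.1 and 8.38 FPKM at 10 µg per L, and 2.86, 5.28 and 3.29 FPKM at 50 µg per L. Only the lower dose, where 22.0% of all genes had groups without overlap, stood clear of the controls. Its difference of 0.85 (SE 0.24) did not pass limma's test (adjusted p = 0.214), nor did that of -0.16 at the higher dose (adjusted p = 0.946).

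Further along the leukotriene pathway 3 genes of the wider lists passed the test in liver at 50 µg per L. Those lists were also chosen with earlier results of these data known, so the calls describe the genes and are not independent support. LTA4H, which makes leukotriene B, fell by 1.18 on the log2 scale (SE 0.23, limma adjusted p = 0.018), from 20.6 ± 4.65 to 8.39 ± 0.820 FPKM (SD, n = 3). LTB4R, a leukotriene B receptor, had a log2 difference of -1.21 (SE 0.30, limma adjusted p = 0.0464), from 3.81 ± 1.72 to 1.02 ± 0.510 FPKM. GGT5 (LOC102446859), which cleaves leukotriene C, rose by 1.10 (SE 0.25, limma adjusted p = 0.0331), from 4.85 ± 0.362 to 11.6 ± 1.94 FPKM. LTB4R2 (LOC102451029), the second leukotriene B receptor, was at 3.09, 3.39 and 5.73 FPKM in control livers, and at 50 µg per L it was listed at 0 in livers 1 and 2 and at 0.0267 FPKM in liver 3, but its test missed the threshold (limma adjusted p = 0.0523).

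These 3 calls were mostly lost when any 1 library was left out. The count over all genes changed as well, from 513 to between 63 and 718, and the cause was not tested. Without each library in turn, GGT5 passed in 0 of 6 fits, and LTA4H and LTB4R passed in 1 of 6, the fit without control liver 1. The differences were 1.001 to 1.22 for GGT5, -1.38 to -1.08 for LTA4H and -1.55 to -1.01 for LTB4R. LTB4R was at 1.85 FPKM in control liver 1, which lacked the 26-feature set, and at 5.07 and 4.52 FPKM in control livers 2 and 3, against 0.706, 0.739 and 1.61 FPKM at 50 µg per L. LTA4H was at 15.3 FPKM in control liver 1 and at 23.6 and 23.0 FPKM in the other two, against 8.999, 7.46 and 8.71 FPKM at 50 µg per L. With the 26-feature term, which left control liver 1 as the only control, the difference was -0.53 for LTB4R and -0.80 for LTA4H.

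At 10 µg per L the LTB4R mean was 1.26 ± 0.404 FPKM, and LTB4R2 was at 0.234, 3.07 and 9.74 FPKM in livers 1 to 3. ALOX5AP, the partner protein of ALOX5, averaged 4.01 ± 1.36 FPKM in control livers and 7.64 ± 2.92 at 50 µg per L, with no call. LTA4H was also lower at 50 than at 10 µg per L in liver, with 22.2, 13.8 and 18.1 FPKM in the livers at the lower dose (limma adjusted p = 0.0452), a call kept in 2 of 6 fits without 1 library (those without liver 1 or 2 at 10 µg per L). In gut LTA4H averaged 112 ± 14.5 FPKM in controls, 53.2 ± 17.9 at 10 µg per L and 62.8 ± 25.0 at 50 µg per L, with no call at either dose (log2 differences -1.10 and -0.88).

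**Figure D3:**
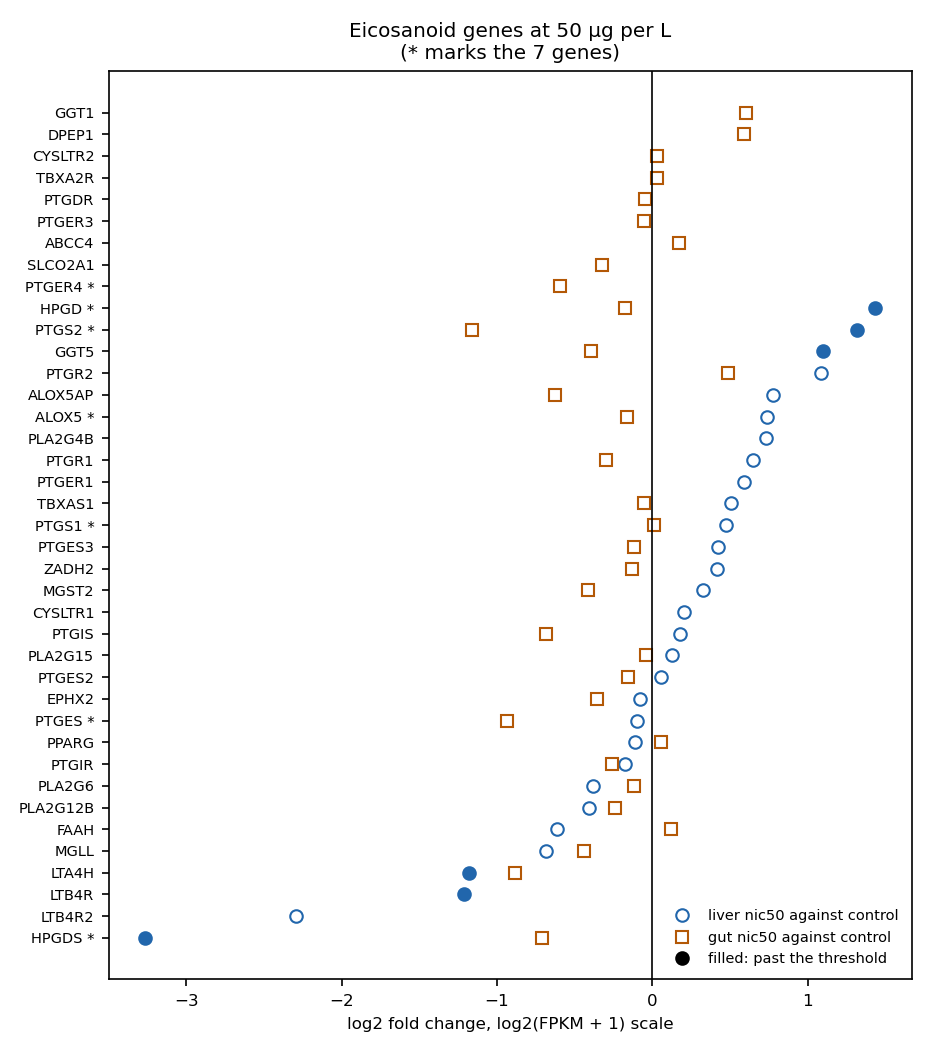
Log2(FPKM + 1) change from control at 50 µg per L for the 7 genes and the wider eicosanoid genes tested in liver or gut, with filled markers for genes past limma's test. LTA4H (-1.18) and LTB4R (-1.21) fell and GGT5 (1.10) rose in liver, and no gene passed in gut.

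The wider eicosanoid lists held 58 further genes for fatty acid release, prostanoid synthesis, transport, breakdown and receptors, and leukotrienes, of which 38 were matched in the table. These lists too were chosen with earlier results of these data known. At 50 µg per L, 1 of the 24 tested in liver rose and 2 fell, and the median log2 difference was 0.15 against 0.13 over all genes tested. In that comparison 3.69% of all genes rose and 1.02% fell. With libraries rescaled by trimmed means these shares were 2.25% and 1.60%, and after quantile normalization 2.63% and 2.03%, as rescaling moved the median of all genes from 0.13 to near 0 (-0.00195 with trimmed means). At 10 µg per L 0 of the 24 passed limma's test in liver, in a comparison in which 1.07% of all genes passed. At an unadjusted p under 0.05 there were 4 of the 24, beside 13.5% of all genes. In gut 0 of the 27 tested passed limma's test at either dose, with 10 at an unadjusted p under 0.05 at the lower dose and 3 at the higher. The shares of all genes at that unadjusted p were 14.9% and 6.50%. The gut median of the wider lists at 50 µg per L was -0.12, beside -0.02 for all genes.

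Of the 7 genes themselves, 3 of the 6 tested in liver at 50 µg per L were past the threshold, beside the 4.71% for all genes, a count that the choice of genes used. At 10 µg per L 0 of 6 passed limma's test in liver, with 3 at an unadjusted p under 0.05, beside the 13.5% of all genes. The control livers used there also helped choose the genes, so this count is not independent of the choice. Between the doses in liver HPGDS differed by -2.76 (SE 0.38), PTGS2 by 0.71 and HPGD by 0.62, where 2.53% of all genes passed. In gut 0 of 7 passed limma's test at either dose, with 2 at an unadjusted p under 0.05 at the lower dose and 4 at the higher, beside 14.9% and 6.50% of all genes. Gut values may also have been used in the choice, so these counts only describe the 7 genes. The median over the 7 genes in gut at 50 µg per L was -0.59.

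The difference between tissues at 50 µg per L passed the threshold for GGT5 among the 32 wider genes tested, from lists chosen with earlier results known. It was 1.49 for GGT5 (SE 0.33, limma adjusted p = 0.0439), where 0.987% of all genes passed. HPGDS, PTGS2 and HPGD were past the threshold too, but their liver values helped choose them, so this only describes them. The GGT5 call was kept in only 2 of the 12 fits without 1 library, those without control gut 2 or gut 1 at 50 µg per L. The remaining values of liver change minus gut change were 0.93 for PTGER4, 0.90 for ALOX5, 0.83 for PTGES and 0.46 for PTGS1, none past the threshold. At 10 µg per L 0 of the 7 passed limma's test of this difference, where 0.364% of all genes did. At an unadjusted p under 0.05 there were 2 of the 7, beside 9.83% of all genes. The control livers in this difference also helped choose the 7. The liver and gut changes at the 2 doses share their tissue's control libraries.

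Without exposure, 6 of the 7 genes were lower in liver than in gut. The log2 difference of liver from gut was -3.56 for PTGER4 (limma adjusted p = 1.4e-10), -1.74 for PTGS2, -1.46 for HPGDS, -1.22 for PTGS1, -1.01 for ALOX5 and -0.89 for PTGES, and it was 0.80 for HPGD (limma adjusted p = 0.00188). All 7 passed, as did 64.1% of all genes, with 51.5% lower in liver and 12.6% higher. These control livers also helped choose the 7 genes. With the libraries rescaled by trimmed means 26.6% were lower and 24.0% higher, and the median of all genes moved from -0.58 to -0.047. Under that scaling the differences of HPGDS (-0.77, adjusted p = 0.0900), PTGES and ALOX5 no longer passed. Of the 32 wider genes tested 4 were higher in liver (LTB4R2, LTB4R, PTGER1 and MGST2) and 14 lower, led by DPEP1 (-5.41) and TBXA2R (-3.14). Among the lower ones PTGIR, PLA2G6, PPARG, PTGES2 and PTGES3 no longer passed with trimmed means, and PTGES2 and PTGES3 changed sign.

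Ordered by mean level over the 6 groups, neighbouring groups often did not separate. For HPGDS the steps from gut at 50 µg per L to control liver and from liver at 10 to liver at 50 µg per L were the ones without overlap. For PTGS2 livers at 50 µg per L overlapped the guts at 10 µg per L, and livers at 10 µg per L overlapped the guts at 50 µg per L. For PTGES only the guts at 10 µg per L stood clear of the next group. For HPGD each liver group was separate and the 3 gut groups overlapped.

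The genes most like a member were looked for where its level spanned more than 2 log2 units over the 9 libraries of a tissue, which held for HPGDS in liver (3.82) and PTGES in gut (2.24). Likeness was the mean absolute difference of centred log2 values over the 9 libraries. In liver the nearest to HPGDS were the galectin LGALS3 (0.631), the receptor tyrosine kinase RET (0.665) and the galectin LGALS4 (0.682). LGALS3 was at 66.9, 108 and 83.1 FPKM in control livers, 122, 89.4 and 124 at 10 µg per L, and 19.7, 15.7 and 19.2 at 50 µg per L. RET was at 6.05, 4.74 and 3.89 FPKM in control livers and 0.145, 0.152 and 0.0883 at 50 µg per L.

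Each of these 3 genes had all its livers at 50 µg per L below all other livers, a likeness to HPGDS by which they were chosen. In gut none of them had a group at 50 µg per L below its controls in every library. LGALS4, a marker of enterocytes in mammals, was higher in control livers (71.9, 22.8 and 27.6 FPKM) than in control guts (4.12, 3.43 and 2.92 FPKM). In gut the nearest to PTGES were ATP6AP1 (LOC102456381, 0.209), the endothelial gene ECSCR (0.215) and the scavenger receptor SCARA5 (0.227). ECSCR was at 4.64, 3.14 and 5.17 FPKM in control guts, 8.45, 4.98 and 8.74 at 10 µg per L, and 1.43, 1.30 and 2.56 at 50 µg per L. This was the same order of groups as PTGES, for whose likeness it was chosen.

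**Figure D4:**
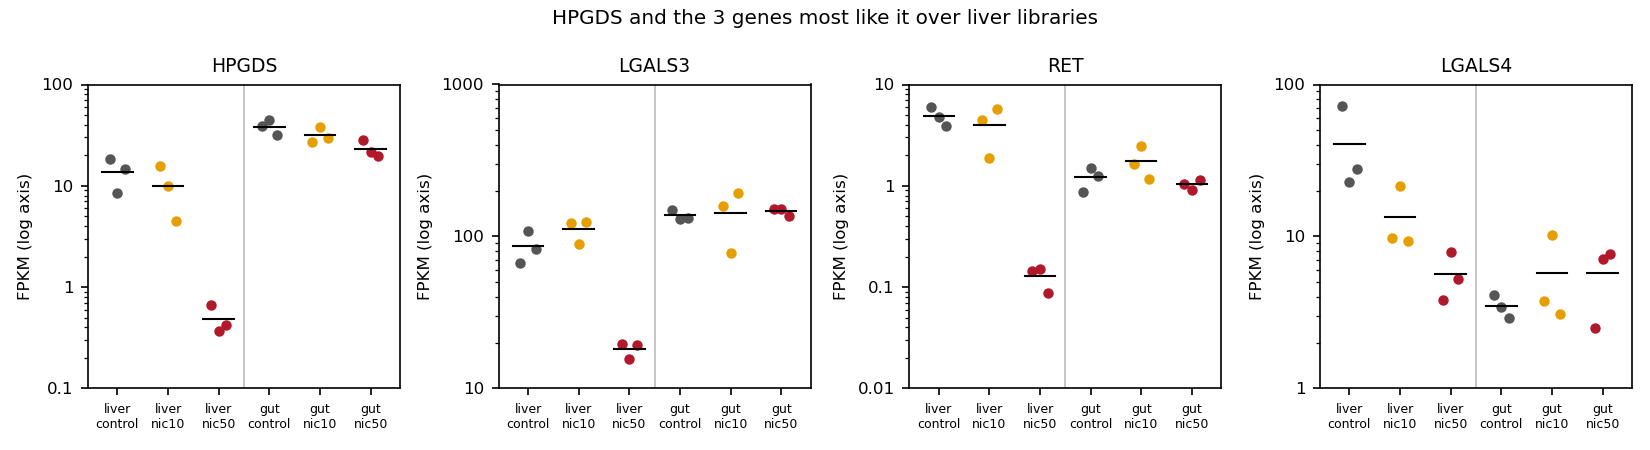
FPKM in the 18 libraries (log axes) of HPGDS and the 3 genes most like it in liver, with points in grey for controls, orange for 10 µg per L (nic10) and red for 50 µg per L (nic50), and the group mean as a black line. Among the 9 livers, each of the 4 genes is lowest in the 3 at 50 µg per L, where RET lies between 0.0883 and 0.152. LGALS3, RET and LGALS4 were chosen for their likeness to HPGDS over these livers.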

How the data were processed

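RNA from liver and gut was extracted with TRIzol and made into libraries with a VAHTS Universal V6 kit, per the labels' protocols. Per the submitters' processing notes, CASAVA was used. Which aligner, counter or genome build produced the values is not given in the sources. The authors deposited 1 table of FPKM values for 24880 features in 18 libraries, per the file headers. No counts were used. The steps between low values, under 0.2 FPKM, did not give whole reads (the commonest ratio was shared by 0.362% to 1.58% of low genes), so the depth is unknown and no counting interval is given.

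Groups came from the labels. limma 3.58.1 (R 4.3.3), with a trend in the variance, was run on log2(FPKM + 1). A gene entered a fit if 3 or more of its libraries reached 1 FPKM. The 3 groups of a tissue were fitted together, and tissues were compared in a joint fit of the 18 libraries. Tests were two-sided, adjusted by the Benjamini-Hochberg method over all genes, with a threshold of 0.05. The scripts were tested on simulated data. The wider and marker lists hold known pathway and cell type genes, and the genes named were the members, the wider genes past a test or with a role beside a member, and the 3 most alike where a member spanned more than 2 log2 units. Members and lists were chosen with earlier results of these data known. PTGR1, PTGR2, SLCO2A1, the other receptors and synthases, ALOX5AP and LTB4R2 did not pass and were named for their roles after their values were seen.

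Symbols came from the table for 13431 features and from RefSeq assembly ASM4963464v1 for 975 more, which are printed with their identifiers. Its order of genes was used for neighbours, and no coordinate of it is printed. Near-identical gene copies could have shared reads and are uncertain. No sequence is printed because none was used here. Alternatives were another pseudocount, filter, scaling (trimmed means, quantiles), library weights, a replicate block, only the groups compared, averaging the alike livers, leaving out each library and, added after seeing the data, a term for the 26-feature set. In the liver fits of a dose against control, that term left control liver 1 as the only control.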

Additional observations from a re-analysis of the deposited data

Results flagged for a closer look

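For 4 genes the change at 50 µg per L differed between liver and gut by limma's test of the difference itself, given as liver change minus gut change on the log2(FPKM + 1) scale. HPGDS differed by -2.55, with a fall from 13.8 to 0.482 FPKM in liver and from 38.5 to 23.1 FPKM in gut. PTGS2 differed by 2.48, from 0.946 to 4.03 FPKM in liver and from 5.54 to 1.91 FPKM in gut. HPGD differed by 1.61, from 87.1 to 237 FPKM in liver and from 49.6 to 43.9 FPKM in gut. GGT5 differed by 1.49, from 4.85 to 11.6 FPKM in liver and from 4.95 to 3.48 FPKM in gut. The first 3 genes were chosen with their liver changes known, so these values describe them. GGT5 came from lists that were also chosen with earlier results of these data known. The GGT5 call was kept in 2 of 12 fits without 1 library. Groups of 3 were too small to be screened for single outlying libraries.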

How the results depend on the processing

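The calls for the 7 genes and the wider lists rest on few libraries. Leaving out each library in turn gave these numbers of the 7 and wider genes past the test: 0 to 2 in liver at 10 µg per L (0 with all libraries), 1 to 7 at 50 µg per L (6) and 1 to 5 between doses (2); in gut 0 to 3 (0), 0 to 0 (0) and 0 to 5 (0); for the difference between tissues 0 to 1 at 10 µg per L (0) and 2 to 4 at 50 µg per L (4); and 22 to 24 between control tissues (25). All-gene counts ran from 63 to 718 around 513 in liver and from 0 to 14 around 3 in gut at 50 µg per L. With library weights the counts were 13, 17 and 12 in liver, 12 at 10 µg per L and 12 between doses in gut, and 11 and 7 for the difference between tissues. Library weights also raised the counts over all genes, to 2804, 3373 and 4797 of 10892 in liver. They were 1838 and 1092 of 12617 in those gut comparisons, and 2719 and 546 of 13475 for the difference between tissues. With only the groups compared, 10 passed in liver at 50 µg per L, beside 1137 of all 10492 genes tested. With the alike livers averaged, 1 library was left at 50 µg per L in liver, so no counts are given for that setting. No filter gave 1 between liver doses, beside 208 of all 18725 genes. A mean of at least 5 FPKM left 10 between control tissues, beside 4988 of all 7363 genes. The cause of these shifts was not tested, apart from the fewer genes or samples.

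The liver values at 50 µg per L helped choose the 7 genes, so their ranges only describe the libraries. HPGDS was at -3.56 to -3.04 without single libraries. Averaging the alike livers left 1 library at 50 µg per L, too few for a test to decide. The differences were then -3.37 for HPGDS, 1.31 for PTGS2 and 1.43 for HPGD. With a pseudocount of 0.1 HPGDS was at -4.54. Across tissues HPGDS lost its call in 1 of 12 fits, without liver 3 at 50 µg per L (-2.52), and HPGD lost it with quantiles (1.39).

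Signs turned mostly for differences that had not passed limma's test. The exceptions lay between control tissues, where PTGES2 (-0.48) and PTGES3 (-0.53) had passed as lower in liver. There PTGES2 was at 0.18 (trimmed means) and 0.065 (quantiles) and PTGES3 at 0.19 (trimmed means). PTGS1 turned with weights in liver at 10 µg per L (-0.032) and in gut at 50 µg per L (-0.092), and PTGS2 in gut at 10 µg per L (0.031). With the 26-feature term, against control liver 1 alone, PTGES in liver at 50 µg per L was at 0.075. HPGD between gut doses was at 0.16 (trimmed means), 0.052 (quantiles), 0.28 (weights) and 0.077 (26-feature term). For the difference between tissues at 10 µg per L, ALOX5 was at 0.11 (pseudocount), 0.12 (trimmed means), 0.00063 (quantiles) and 0.014 (alike livers averaged), PTGER4 at 0.055 (trimmed means) and 0.047 (weights), and HPGDS at 0.29 (weights). Without single libraries the ranges were -0.19 to 0.051 for ALOX5 between liver doses, -0.13 to 0.22 for PTGS1 in gut at 50 µg per L and -0.14 to 0.11 for HPGD between gut doses. For the difference between tissues at 10 µg per L they were -0.59 to 0.21 for HPGDS, -0.31 to 0.00484 for PTGS1, -0.21 to 0.054 for PTGER4 and -0.22 to 0.11 for ALOX5.

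Deviations of same-numbered libraries were weakly related at most (correlations from -0.172 to 0.228 in liver and -0.287 to 0.246 in gut). They were over 0.1 in 5 of 9 liver pairs and 2 of 9 gut pairs. Pairs with other numbers reached 0.161 in liver and 0.203 in gut. The numbers were not used as pairs in the main fits. With the replicate block 1 gene passed between liver doses, and the ALOX5 difference in liver at 50 µg per L was 0.74.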
